A study of Mus musculus with 12 samples.

Results

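The early growth response and Nr4a transcription factors and the genes of T-cell anergy were examined in CD4+ T cells from mouse spleen. They comprised 10 genes, chosen by name: *Egr1*, *Egr2*, *Egr3* and their cofactor *Nab2*; *Nr4a1*, *Nr4a2* and *Nr4a3*; and the anergy genes *Cblb*, *Rnf128* and *Dgka*. All 10 were among the 45777 genes of the expression table, and all 10 were among the 23585 genes tested. Per the labels, the cells came from wild type Balb/c mice aged 7 weeks, and every group was stimulated for 3 days with 0.5 ug/ml anti-CD3, an antibody that triggers the T-cell receptor complex. One group received anti-CD3 alone, the second also received *L. acidophilus* (a lactic acid bacterium used as a probiotic, heat-inactivated in the cultures of the study), the third FK506 (tacrolimus, a calcineurin inhibitor), and the fourth both, called the combination here. Each group held 3 libraries, and resting cells without anti-CD3 were not among the groups. The sources did not say whether the 3 libraries of a group came from separate mice or cultures, so the p-values measure the spread between these libraries, which may be technical.

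T-cell receptor stimulation induces the *Egr* and *Nr4a* genes within a short time, through Ras and MAP kinase signalling and through calcium, calcineurin and NFAT. Egr2 and Egr3 are zinc finger transcription factors linked to anergy, a state in which a T cell that met antigen without co-stimulation responds poorly afterwards, and Nab2 binds Egr proteins and modulates their activity. The orphan nuclear receptors Nr4a1, Nr4a2 and Nr4a3 bind DNA without a known hormone and are used as markers of recent receptor signalling. Cblb and Rnf128 (also called GRAIL) are E3 ubiquitin ligases that restrain receptor signalling, and Dgka (diacylglycerol kinase alpha) converts diacylglycerol to phosphatidic acid and so limits Ras activation. FK506 blocks calcineurin and with it the nuclear entry of NFAT.

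The promoters of the *Nr4a* genes are shown because the 3 genes are induced as a family and their shares of the summed level are compared between the groups. The sequences are those of RefSeq on GRCm38.p6, the 250 bases before the 1 start site that the RefSeq promoter table gives for each gene, 5′ to 3′ on the strand of the gene, with capitals for the cyclic AMP response element half-site TGACG (or CGTCA, its reverse complement) and, in *Nr4a1*, for the Egr site (CGCCCCCGC, the reverse complement of GCGGGGGCG). The *Nr4a1* window lies at chr15:101266596-101266845 on the plus strand, that of *Nr4a2* at chr2:57124004-57124253 on the minus strand, and that of *Nr4a3* at chr4:48045055-48045304 on the plus strand. The start site in the table is not always the outer end of the gene given with its levels below: the *Nr4a2* window lies just outside its gene, the *Nr4a3* window lies mostly inside the gene at its 5′ end, and the *Nr4a1* window lies well inside, at an internal start.
Nr4a1: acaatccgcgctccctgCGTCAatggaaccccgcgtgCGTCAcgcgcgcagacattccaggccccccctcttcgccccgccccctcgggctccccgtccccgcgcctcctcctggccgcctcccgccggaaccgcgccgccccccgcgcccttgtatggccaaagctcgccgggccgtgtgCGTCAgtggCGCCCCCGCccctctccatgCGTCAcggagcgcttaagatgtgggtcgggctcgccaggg
Nr4a2: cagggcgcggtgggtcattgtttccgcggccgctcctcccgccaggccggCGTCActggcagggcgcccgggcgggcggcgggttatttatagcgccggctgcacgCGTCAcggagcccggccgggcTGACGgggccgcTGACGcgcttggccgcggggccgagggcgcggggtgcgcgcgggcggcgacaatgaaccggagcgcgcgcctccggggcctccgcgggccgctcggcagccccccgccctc
Nr4a3: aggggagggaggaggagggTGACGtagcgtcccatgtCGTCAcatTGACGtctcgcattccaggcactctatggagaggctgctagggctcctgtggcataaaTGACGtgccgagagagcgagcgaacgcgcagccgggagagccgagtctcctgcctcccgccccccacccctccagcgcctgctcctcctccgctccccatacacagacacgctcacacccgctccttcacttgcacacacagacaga

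Each of the 3 windows held 4 half-sites on either strand. Of all 32851 mouse promoter windows of 300 bases (250 before to 50 after the start), 20.8% held at least 1 half-site and 0.231% (76 windows) held at least 4. None of the 3 held the full element TGACGTCA, which contains the half-site and was present in 1.79% of windows. The Egr site (GCGTGGGCG or GCGGGGGCG, 3.47% of windows) matched in *Nr4a1* and in neither *Nr4a2* nor *Nr4a3*. The NFAT core GGAAA, in 61.3% of windows, matched once in *Nr4a2* and in neither *Nr4a1* nor *Nr4a3*. The Nr4a recognition sequence AAAGGTCA and the AP-1 site TGANTCA, in 1.51% and 7.81% of windows, matched in none of the 3. For *Egr2*, 4 of its 5 windows held a CArG box, the site that serum response factor recognizes (1.63% of windows). The windows starting at 67537619, 67537620 and 67537680 overlap and share the same box, CCATATATGG, and the window starting at 67537316 held another, CCTTTTTTGG. A stretch of 30 bases at chr10:67537791-67537820, plus strand, is given with the shared box and a neighbouring half-site in capitals.
Egr2: ctcagtCCATATATGGgcagcgaCGTCAcg
In all, 15 windows of 8 of the 10 genes were examined, and no window of *Egr1* or *Egr3* was among them. These matches describe letters in the windows and not binding, which was not measured.

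The libraries held 45416397 to 64658165 counts on genes. The replicate 1 library of each group was the deepest (63113961 to 64658165 counts, against 45416397 to 54245588), and several genes below were at their lowest level in it, so counts and calls are also given from replicates 2 and 3 alone where they differ. The labelled cell type was checked with 8 T-cell markers, whose levels summed to 1390 to 2240 FPKM (fragments per kilobase of transcript, scaled to sequencing depth) in the libraries, against 2.23 to 9.29 FPKM for 4 markers of CD8 T cells and NK cells. The 10 B-cell markers reached 245 to 488 FPKM in sum with FK506 and 140 to 166 with the combination, against 41.1 to 66.7 with anti-CD3 alone and 27.7 to 39.6 with *L. acidophilus*. The 10 myeloid markers reached 48.5 to 75.4 FPKM in sum with the combination, against 2.53 to 4.27 with anti-CD3 alone, 6.34 to 20.1 with FK506 and 3.79 to 7.82 with *L. acidophilus*, with *S100a8* at 0 in every library and *Csf1r* at 0 in every library with anti-CD3 alone. In such bulk samples, fewer cells of a type and less RNA per cell cannot be told apart.

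Levels between genes were compared as FPKM, which accounts for gene length. With anti-CD3 alone, *Dgka* stood highest with a mean of 97.7 FPKM, followed by *Egr2* at 50.7, *Egr1* at 47.1, *Nr4a1* at 45, *Nab2* at 42.5, *Cblb* at 36.3, *Nr4a2* at 19.6, *Egr3* at 12.8, *Nr4a3* at 9.05 and *Rnf128* at 0.921. Neighbours in this order overlapped in their 3 libraries, except that *Dgka* lay above *Egr2* and *Nr4a3* above *Rnf128* in every library. With the combination, *Dgka* at 238, *Nr4a1* at 133 and *Egr1* at 77 FPKM took the first places without overlap among them or with the genes that followed. The plot of FPKM by library shows all 10 genes.

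**Figure D1:**
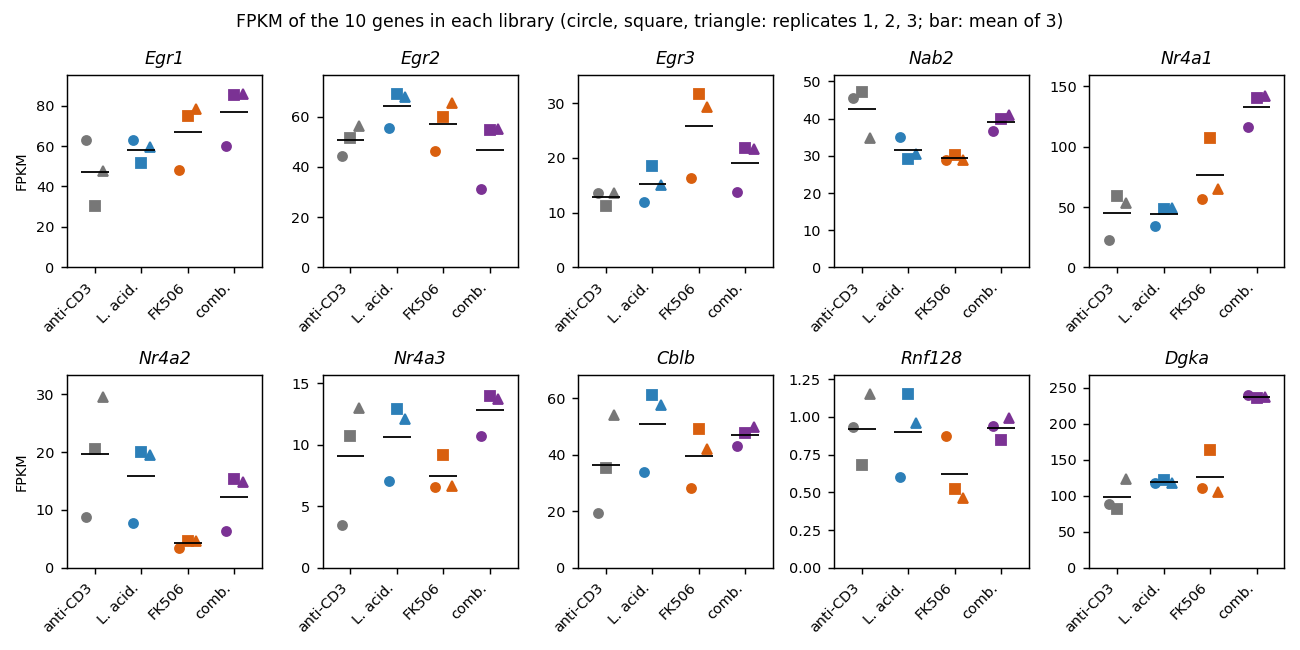
FPKM (vertical axis, linear, from 0) of each of the 10 genes in the 12 libraries, grouped along the horizontal axis as anti-CD3 alone, *L. acidophilus* (L. acid.), FK506 and the combination (comb.), with circles, squares and triangles for replicates 1, 2 and 3 and a bar for the mean of 3. *Dgka* and *Nr4a1* reached their highest levels with the combination (236 to 240 and 116 to 142 FPKM), and *Nr4a2* was lowest with FK506 (3.44 to 4.7 FPKM).

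At most 3 of the 10 genes passed the test in any given comparison (edgeR, Benjamini-Hochberg adjusted p under 0.05 over all genes tested, no minimum fold). No member passed with *L. acidophilus* against anti-CD3 alone, where 0.229% of all genes tested did (54 of 23585). In that comparison 1 of the 10 had an unadjusted p under 0.05 (*Nab2*, as did 3489 of all genes). DESeq2 called that 1 gene and 1112 of all genes, and a fit with the replicate number as a block called none of the 10 and 101 of all genes. FK506 against anti-CD3 alone changed 3 of the 10 genes (*Egr3* higher, *Nab2* and *Nr4a2* lower), where 19.0% of all genes tested passed. The combination against anti-CD3 alone changed 2 (*Nr4a1* and *Dgka*, both higher) where 43.3% of all genes passed. Against FK506, the combination changed 1 gene (*Dgka*, higher; background 19.1%). Against *L. acidophilus* it changed 3 (*Nr4a1* and *Dgka* higher, *Egr2* lower; background 33.6%). The median log2 fold change of the 10 genes was 0.17, 0.04, 0.25, 0.41 and 0.17 in these 5 comparisons in turn, against 0.00, 0.00, 0.02, 0.03 and 0.00 over all genes tested. Several comparisons share groups, so these counts are not independent of each other. The FPKM of the groups did not overlap for none of the 10 genes with *L. acidophilus* against anti-CD3 alone (17.8% of all genes tested), for 3 with FK506 (32.1%) and for 3 with the combination (50.0%). They did not overlap for 4 genes between the combination and *L. acidophilus* (50.2%). Between the combination and FK506 they did not overlap for 5 genes, all higher with the combination (*Nab2*, the 3 *Nr4a* genes and *Dgka*), where 41.1% of all genes did not overlap and 23.4% were higher without overlap.

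From replicates 2 and 3 alone, the count was 5 of 10 for FK506 against anti-CD3 alone (*Egr1* and *Egr3* higher, *Nr4a2*, *Nr4a3* and *Rnf128* lower) and 5 of 10 for the combination against anti-CD3 alone (*Egr1*, *Egr3*, *Nr4a1* and *Dgka* higher, *Nr4a2* lower). Both counts then included *Egr1* (log2 fold change 0.90, edgeR adjusted p = 0.0151, and 0.93, adjusted p = 0.00461), which was not called with all 12 libraries. The same reduced fit gave 3 of 10 for the combination against FK506 (*Nr4a2* and *Nr4a3* higher, *Egr3* lower), and *Dgka* was not among them (log2 fold change 0.71, adjusted p = 0.0562). For the combination against *L. acidophilus* it gave 4, *Nr4a1* and *Dgka* higher and *Egr2* and *Nr4a2* lower. Over all genes tested, this fit called 3493, 9670, 4117 and 7533 in these 4 comparisons in turn. Scaling by library size alone, without TMM factors, shifted the median log2 fold change of all genes by 0.20 on the log2 scale for the combination against anti-CD3 alone, by 0.13 for the combination against *L. acidophilus* and by 0.11 for FK506 against anti-CD3 alone. The called members kept their directions under that scaling.

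**Figure D2:**
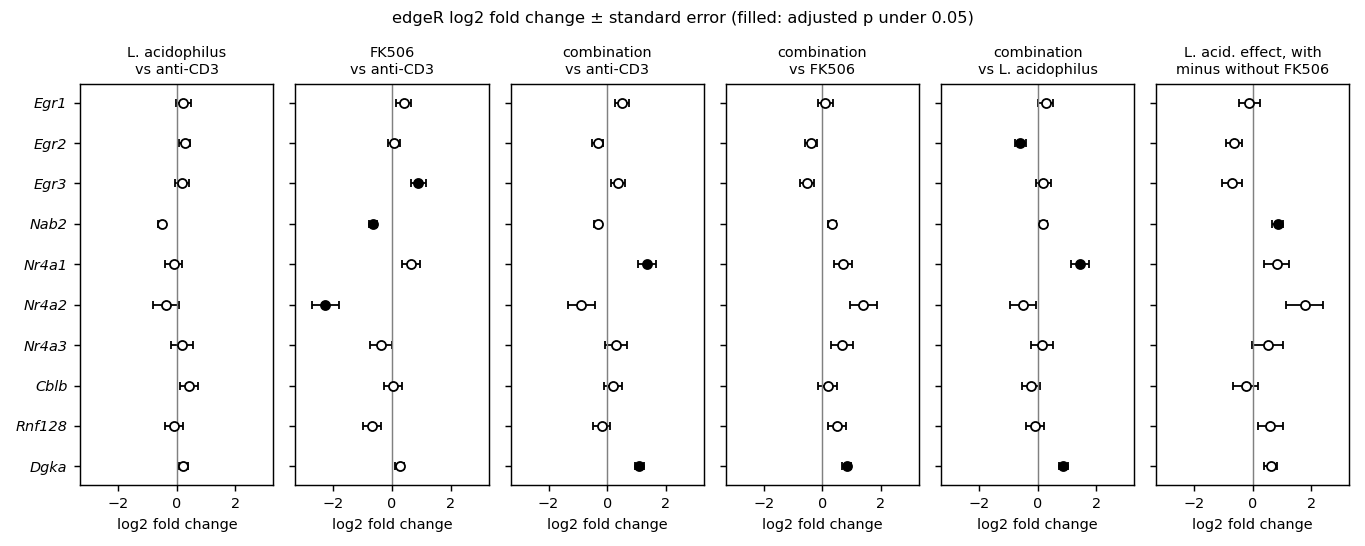
Log2 fold change (horizontal axis, edgeR) with its standard error as a bar for each of the 10 genes (rows) in 5 comparisons and in the *L. acidophilus* effect with minus without FK506 (6 panels), filled where the adjusted p was under 0.05. *Nr4a2* showed the largest fall, with FK506 (-2.28), and *Nr4a1* and *Dgka* rose with the combination.

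The *Egr* genes encode zinc finger factors that bind the same GC-rich site. *Egr3* (gene ID 13655, chr14:70077317-70082613, plus strand) was measured at 13.6, 11.3 and 13.6 FPKM in replicates 1, 2 and 3 with anti-CD3 alone and at 11.9, 18.5 and 15.1 with *L. acidophilus*. It was measured at 16.4, 31.6 and 29.3 FPKM with FK506 and at 13.8, 21.8 and 21.6 with the combination. Every FK506 library lay above every library with anti-CD3 alone, and so did every combination library, the lowest of which exceeded the highest control by a small margin. With FK506, *Egr3* rose 1.86-fold (log2 fold change 0.90, SE 0.25, edgeR adjusted p = 0.0255). The call was kept in 8 of 12 fits that left out 1 library, and the largest adjusted p among them was 0.108, without FK506 replicate 2; it was also lost without anti-CD3 replicates 2 or 3 or FK506 replicate 3, with log2 fold changes of 0.74 to 0.90. The B-cell and myeloid markers moved with this comparison (9 of 10 and 7 of 8 tested higher, summed levels as above), and their part in the result was not tested. For the combination against anti-CD3 alone, the log2 fold change of *Egr3* was 0.36 (95% interval -0.18 to 0.90, edgeR adjusted p = 0.258), and against FK506 it was -0.54 (adjusted p = 0.153). *Egr3* from replicates 2 and 3 alone was higher with the combination than with anti-CD3 alone (0.59, edgeR adjusted p = 0.00686) and lower than with FK506 (-0.61, adjusted p = 0.0158).

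*Egr2* (gene ID 13654, chr10:67534469-67542188, plus strand) was measured at 44.3, 51.5 and 56.4 FPKM with anti-CD3 alone and at 55.7, 69.2 and 67.9 with *L. acidophilus*. It was at 46.5, 59.9 and 65.4 FPKM with FK506 and at 31.2, 54.6 and 55 with the combination. The combination libraries all lay below the *L. acidophilus* libraries and overlapped the other groups, and the replicate 1 library was the lowest of each group. Against *L. acidophilus*, *Egr2* fell with the combination (log2 fold change -0.59, SE 0.20, edgeR adjusted p = 0.0385). This call was kept in 8 of 12 fits without 1 library: it was lost without *L. acidophilus* replicates 2 or 3, FK506 replicate 2 or combination replicate 1, where the log2 fold change was -0.38, and the largest adjusted p was 0.114. It was made in 5 of 10 alternative fits and lost in the others: without TMM factors (log2 fold change -0.45, adjusted p = 0.118), with RLE factors (adjusted p = 0.0612), in both limma fits (0.112 and 0.103) and with only the libraries of the groups compared (0.0704). In this comparison 9 of 10 B-cell and 7 of 8 myeloid markers were higher, and their part in the fall was not tested. The log2 fold change of *Egr2* was 0.06 with FK506 (95% interval -0.37 to 0.50, edgeR adjusted p = 0.874) and -0.33 with the combination against anti-CD3 alone (95% interval -0.76 to 0.10, edgeR adjusted p = 0.204). A long noncoding RNA gene, *Gm32255*, overlaps the start of *Egr2* by 1712 bases on the minus strand, and no source says whether the counting used strand. It held 93 to 351 counts with the combination, against 1096 to 1337 with *L. acidophilus*, 1135 to 1596 with anti-CD3 alone and 803 to 1059 with FK506, so it was lower in the same comparison in which *Egr2* fell. *Egr2* held 6651 to 12135 counts.

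*Egr1* (gene ID 13653, chromosome 18) was measured at 63.2, 30.3 and 47.7 FPKM with anti-CD3 alone, 62.9, 51.7 and 59.3 with *L. acidophilus*, 48.1, 75 and 78.2 with FK506 and 60.2, 85.4 and 85.5 with the combination. The groups overlapped, since replicate 1 was the highest library with anti-CD3 alone and the lowest with FK506 and with the combination. The log2 fold change was 0.40 with FK506 (95% interval -0.15 to 0.95, edgeR adjusted p = 0.296) and 0.50 with the combination (95% interval -0.05 to 1.05, edgeR adjusted p = 0.129). The ratio of *Egr1* to *Egr2* FPKM was 0.954 ± 0.429 (SD, n = 3) with anti-CD3 alone, 0.917 ± 0.195 with *L. acidophilus*, 1.16 ± 0.112 with FK506 and 1.68 ± 0.214 with the combination. In the combination libraries it spanned 1.55 to 1.93, above the 0.588 to 1.43 of the libraries with anti-CD3 alone. *Egr3* supplied 16.9 ± 2.1% of the summed FPKM of the 3 *Egr* genes with FK506, 13.3 ± 0.16% with the combination and 11.6 ± 0.461% with anti-CD3 alone, with no overlap between these 3 groups. With *L. acidophilus* the share was 11 ± 2.08% (9.15 to 13.3%), which overlapped both the combination and anti-CD3 alone. The B-cell and myeloid markers were higher with FK506 and with the combination than with anti-CD3 alone (9 and 7 of 10, and 7 of 8 in both), and their part in these shares was not tested.

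*Nab2* (gene ID 17937, chr10:127660918-127666703, minus strand), the cofactor that Egr proteins themselves induce, was measured at 45.5, 47.1 and 34.9 FPKM with anti-CD3 alone and at 35, 29.1 and 30.4 with *L. acidophilus*. It was at 28.9, 30.1 and 29 FPKM with FK506 and at 36.6, 39.9 and 41.1 with the combination. FK506 gave a tight group below every library with anti-CD3 alone, while the combination lay above both single treatments and within the spread of anti-CD3 alone. *Nab2* fell 1.58-fold with FK506 (log2 fold change -0.66, SE 0.13, edgeR adjusted p = 0.005), a call kept in all 12 fits without 1 library and lost in replicates 2 and 3 alone (log2 fold change -0.57, adjusted p = 0.0555). The B-cell (9 of 10) and myeloid (7 of 8) markers were higher in this comparison, and their part in the fall was not tested. With *L. acidophilus* the log2 fold change of *Nab2* was -0.52 (95% interval -0.81 to -0.24, edgeR adjusted p = 0.107) and with the combination -0.33 (95% interval -0.61 to -0.05, edgeR adjusted p = 0.0567). *Egr3* and *Nab2* thus moved in opposite directions with FK506: the ratio of *Egr3* to *Nab2* FPKM was 0.309 ± 0.0746 with anti-CD3 alone, 0.492 ± 0.147 with *L. acidophilus*, 0.877 ± 0.268 with FK506 and 0.483 ± 0.0917 with the combination. *Stat6*, which lies tail to tail with *Nab2* and overlaps it by 70 bases, had a log2 fold change of -0.06 with FK506 (edgeR adjusted p = 0.706) and 0.10 with the combination (edgeR adjusted p = 0.352).

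In the main fit, the effect of *L. acidophilus* on *Nab2* differed without and with FK506. Without FK506 its log2 fold change was -0.52 (edgeR adjusted p = 0.107) and with FK506 (combination against FK506) it was 0.33 (adjusted p = 0.1). Neither passed in this fit, although the former was called in 1 of 10 alternative fits (DESeq2, adjusted p = 0.01) and the latter in 5 of 10 (adjusted p 0.026 to 0.207). The difference of 0.85 between both effects was called (SE 0.18, edgeR adjusted p = 0.0258). *Nab2* was the 1 gene of the 10 called for this difference, where 4.35% of all genes tested were called. The call was kept in 6 of 12 fits without 1 library, with values of 0.75 to 1.00 and adjusted p up to 0.0784, reached without *L. acidophilus* replicate 2. It was lost in fits without *L. acidophilus* replicates 2 or 3, FK506 replicates 1 or 3, or combination replicates 2 or 3, and in replicates 2 and 3 alone (value 0.87, adjusted p = 0.0952). *Nab1*, the paralogous cofactor, differed in the other direction. Its level was 15.9 ± 2.23 FPKM with anti-CD3 alone, 22.1 ± 3.32 with *L. acidophilus*, 26.3 ± 2.07 with FK506 and 21.1 ± 0.245 with the combination. *Nab1* rose with FK506 (log2 fold change 0.57, edgeR adjusted p = 0.00699), fell with the combination against FK506 (-0.43, adjusted p = 0.0266), and its difference between both effects was -0.84 (edgeR adjusted p = 0.0212). For 3 further genes this difference had an unadjusted p under 0.05 without passing the adjustment, *Nr4a2* (1.77, 95% interval 0.39 to 3.15, edgeR adjusted p = 0.143), *Dgka* (0.62, 0.13 to 1.10, adjusted p = 0.145) and *Egr2* (-0.65, -1.26 to -0.04, adjusted p = 0.221). The difference was called from replicates 2 and 3 alone for *Nr4a2* (1.94, edgeR adjusted p = 0.0145) and *Egr3* (-0.99, adjusted p = 0.0406). In the combination against FK506, 9 of 10 B-cell markers were lower, and of 8 myeloid markers tested 5 were higher and 1 lower. Their part in these differences was not tested.

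**Figure D3:**
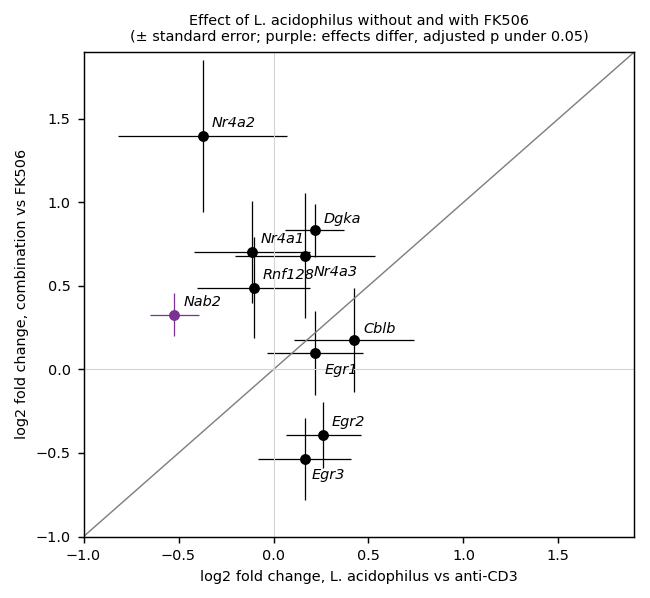
Log2 fold change of *L. acidophilus* against anti-CD3 alone (horizontal axis) and of the combination against FK506 (vertical axis), both from edgeR with standard errors as bars, for the 10 genes, with the line of equal effects. *Nab2* (purple) lies at -0.52 and 0.33, and *Nr4a2* stands highest at 1.40 on the vertical axis with the widest bars.

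With FK506 against anti-CD3 alone *Nr4a2* fell, while *Nr4a1* and *Nr4a3* did not pass the test; no test compared the genes with each other. *Nr4a1* (Nur77; gene ID 15370, chr15:101253902-101274795, plus strand) was measured at 23.1, 58.9 and 53.1 FPKM with anti-CD3 alone and at 34.4, 48.7 and 49 with *L. acidophilus*. It was at 56.4, 107 and 65.2 FPKM with FK506 and at 116, 140 and 142 with the combination. Every combination library exceeded every other library, while FK506 overlapped anti-CD3 alone. The combination raised *Nr4a1* 2.54-fold over anti-CD3 alone (log2 fold change 1.35, SE 0.31, edgeR adjusted p = 0.00423) and 2.75-fold over *L. acidophilus* (log2 fold change 1.46, SE 0.31, edgeR adjusted p = 0.00367), and both calls were kept in all 12 fits without 1 library. Its log2 fold change was 0.70 for the combination against FK506 (95% interval 0.04 to 1.37, edgeR adjusted p = 0.132) and 0.64 for FK506 against anti-CD3 alone (95% interval -0.02 to 1.31, edgeR adjusted p = 0.167). Of the myeloid markers tested, 7 of 8 were higher with the combination than with anti-CD3 alone and than with *L. acidophilus*, as were 7 and 9 of the 10 B-cell markers, and their part in the rise was not tested.

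*Nr4a2* (Nurr1; gene ID 18227, chr2:57106830-57124003, minus strand) was measured at 8.79, 20.5 and 29.6 FPKM with anti-CD3 alone, 7.77, 20.1 and 19.5 with *L. acidophilus*, 3.44, 4.67 and 4.7 with FK506 and 6.44, 15.4 and 14.8 with the combination. The FK506 libraries lay below all others, and replicate 1 was the lowest library in each group. FK506 lowered *Nr4a2* 4.84-fold (log2 fold change -2.28, SE 0.47, edgeR adjusted p = 0.00602), the largest change of the 10 genes in any of the 5 comparisons, and the call was kept in all 12 fits without 1 library. In this comparison 9 of 10 B-cell and 7 of 8 myeloid markers were higher, and their part in the fall was not tested. With the combination *Nr4a2* was intermediate: its log2 fold change was -0.88 against anti-CD3 alone (95% interval -1.85 to 0.09, edgeR adjusted p = 0.132) and 1.40 against FK506 (95% interval 0.41 to 2.39, edgeR adjusted p = 0.0507). The latter passed the threshold in 8 of 10 alternative fits (adjusted p 0.00216 to 0.09). From replicates 2 and 3 alone, *Nr4a2* was lower with the combination than with anti-CD3 alone (-0.92, adjusted p = 0.00186) and *L. acidophilus* (-0.54, adjusted p = 0.0217), and higher than with FK506 (1.56, adjusted p = 0.00294). A second gene model, *LOC105244150*, overlaps its start by 670 bases and held 25 to 233 counts against 819 to 5917 for *Nr4a2*.

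*Nr4a3* (NOR-1; gene ID 18124, chr4:48045078-48086447, plus strand) was measured at 3.47, 10.7 and 13 FPKM with anti-CD3 alone, 7.02, 12.9 and 12.1 with *L. acidophilus*, 6.58, 9.2 and 6.68 with FK506 and 10.7, 14 and 13.7 with the combination. With all 12 libraries it did not pass the test in any comparison, and the combination libraries all lay above the FK506 libraries. From replicates 2 and 3 alone it was lower with FK506 than with anti-CD3 alone (-0.66, edgeR adjusted p = 0.025) and higher with the combination than with FK506 (0.68, adjusted p = 0.0211). The log2 fold change of *Nr4a3* was -0.37 with FK506 (95% interval -1.18 to 0.44, edgeR adjusted p = 0.527) and 0.68 for the combination against FK506 (95% interval -0.13 to 1.49, edgeR adjusted p = 0.23).

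The makeup of the *Nr4a* family differed between libraries with and without FK506. *Nr4a1* supplied 62.1 ± 5.69% (SD, n = 3) of the summed *Nr4a* FPKM with anti-CD3 alone and 63.4 ± 5.65% with *L. acidophilus*, but 86.2 ± 2.03% with FK506 and 84.3 ± 2.43% with the combination. *Nr4a2* supplied 26.2 ± 4.22%, 21.6 ± 4.99%, 5.06 ± 1.14% and 7.54 ± 2.36% in the same order. The 6 libraries with FK506 (82.6 to 88.5% from *Nr4a1*) did not overlap the 6 without (55.5 to 69.9%). The ratio of *Nr4a1* to *Nr4a2* spanned 13.9 to 22.9 with FK506 and 9.06 to 18 with the combination, but 1.79 to 2.87 with anti-CD3 alone and 2.42 to 4.43 with *L. acidophilus*. The summed level of the family was 73.7 ± 33.4, 70.5 ± 18.5, 88 ± 29.1 and 158 ± 21 FPKM in that order, so that the combination had the largest sum with a makeup like that of FK506. A ratio within a library does not depend on the scaling between libraries. The summed B-cell markers split the libraries in the same way (140 to 488 FPKM with FK506 in the culture, 27.7 to 66.7 without), the myeloid markers were also higher in the FK506 and combination groups than with anti-CD3 alone, and their part in the makeup was not tested.

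**Figure D4:**
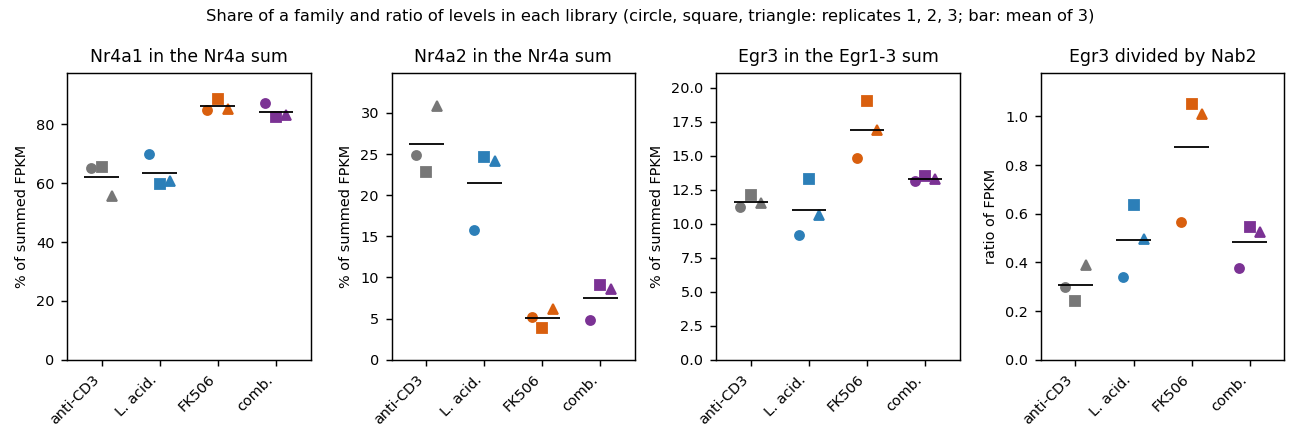
Share of the summed *Nr4a* FPKM from *Nr4a1* and from *Nr4a2*, share of the summed *Egr1* to *Egr3* FPKM from *Egr3* (vertical axes in percent) and ratio of *Egr3* to *Nab2* FPKM in each library, by group, with symbols for replicates 1, 2 and 3 and a bar for the mean of 3. The *Nr4a1* share lies between 82.6 and 88.5% in the 6 libraries with FK506 and between 55.5 and 69.9% in the 6 without.

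*Dgka* (gene ID 13139, chr10:128720131-128745084, minus strand) was measured at 88.2, 81.9 and 123 FPKM with anti-CD3 alone, 118, 122 and 118 with *L. acidophilus*, 111, 163 and 105 with FK506 and 240, 236 and 237 with the combination. The combination libraries lay within a narrow range far above the others, which overlapped among themselves. *Dgka* rose with the combination 2.13-fold over anti-CD3 alone (log2 fold change 1.09, SE 0.16, edgeR adjusted p = 0.000208), 1.78-fold over FK506 (0.83, SE 0.16, adjusted p = 0.0042) and 1.84-fold over *L. acidophilus* (0.88, SE 0.16, adjusted p = 0.00137). All 3 calls were kept in the 12 fits without 1 library. Either agent alone gave a log2 fold change of 0.22 (*L. acidophilus*, 95% interval -0.13 to 0.56, edgeR adjusted p = 0.548) or 0.26 (FK506, 95% interval -0.08 to 0.60, edgeR adjusted p = 0.28). The neighbouring genes that overlap its ends, *Pmel* and *Gm31504*, held at most 141 and 86 counts, against 12748 to 47431 for *Dgka*. In the comparisons with anti-CD3 alone, FK506 and *L. acidophilus* in turn, 7, 5 and 7 of 8 myeloid markers were higher with the combination (1 was lower than with FK506). Of the 10 B-cell markers 7 and 9 were higher than with anti-CD3 alone and *L. acidophilus*, and 9 were lower than with FK506. Their part in the rise was not tested.

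Of the other genes of diacylglycerol signalling, 6 of the 12 listed rose with the combination against anti-CD3 alone, none fell and 6 did not pass, with a median log2 fold change of 0.59. The share that passed was near the 43.3% of all genes called in this comparison, and the B-cell (7 of 10) and myeloid (7 of 8) markers were higher in it too; their part was not tested. *Dgkz* (diacylglycerol kinase zeta, the other main isoform of T cells) was at 57.5 ± 4.53 FPKM with anti-CD3 alone, 49.6 ± 4.83 with *L. acidophilus*, 65.8 ± 17.4 with FK506 and 124 ± 12.6 with the combination. It rose with the combination against anti-CD3 alone (log2 fold change 1.14, edgeR adjusted p = 0.000142) and against FK506 (0.91, adjusted p = 0.00245), and its *L. acidophilus* effects without and with FK506 differed by 1.02 (edgeR adjusted p = 0.0258). The largest rises of the list were *Rasgrp2*, an exchange factor that diacylglycerol and calcium regulate (log2 fold change 2.66, from 1.51 ± 0.462 to 9.41 ± 4.29 FPKM), *Dgkg* (2.18, from 0.199 ± 0.0549 to 1.09 ± 0.436 FPKM) and *Dgki* (1.94, at no more than 0.113 FPKM in any library). *Rasgrp1*, the Ras activator of T cells (0.23, edgeR adjusted p = 0.455), and *Prkcq*, protein kinase C theta (-0.39, adjusted p = 0.0567), did not pass. With FK506 2 of the 12 rose (*Rasgrp2* and *Dgkq*) and none fell, where 19.0% of all genes passed. From replicates 2 and 3 alone, 7 of 12 rose and 1 fell with the combination, where 9670 of all genes were called.

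*Cblb* (gene ID 208650, chr16:52031230-52208047, plus strand) was measured at 19.4, 35.5 and 54 FPKM with anti-CD3 alone, 33.8, 61.2 and 57.5 with *L. acidophilus*, 28.3, 49 and 41.9 with FK506 and 43, 47.8 and 50 with the combination. The groups overlapped throughout, and the spread within anti-CD3 alone exceeded the differences between group means. Its log2 fold change was 0.02 with FK506 (95% interval -0.66 to 0.71, edgeR adjusted p = 0.998) and 0.20 with the combination (95% interval -0.48 to 0.88, edgeR adjusted p = 0.648). *Rnf128* (gene ID 66889, chrX:139563340-139673145, plus strand) was scarce, with 71 to 194 counts in a library. It was measured at 0.931, 0.683 and 1.15 FPKM with anti-CD3 alone, 0.602, 1.15 and 0.957 with *L. acidophilus*, 0.875, 0.525 and 0.46 with FK506 and 0.942, 0.847 and 0.995 with the combination. All groups overlapped those with anti-CD3 alone, and the log2 fold change was -0.68 with FK506 (95% interval -1.33 to -0.02, edgeR adjusted p = 0.14) and -0.19 with the combination (95% interval -0.84 to 0.46, edgeR adjusted p = 0.651). *Rnf128* was lower with FK506 from replicates 2 and 3 alone (-0.97, edgeR adjusted p = 0.0489).

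Among ubiquitin ligases and regulators of T-cell tolerance other than *Cblb* and *Rnf128*, 3 of 12 rose and 3 fell with the combination against anti-CD3 alone (median log2 fold change 0.18), a share near the 43.3% of all genes that passed. In this comparison and with FK506, the B-cell markers (7 and 9 of 10) and myeloid markers (7 of 8 in both) were higher as well, and their part in the counts of this list and of those that follow was not tested. *Dtx1* (Deltex1, an E3 ligase of Notch signalling; log2 fold change 1.53, from 1.41 ± 0.624 to 4.85 ± 0.967 FPKM), *Nedd4l* (1.38) and *Peli1* (0.51) rose. *Nedd4*, an E3 ligase with a HECT domain (-1.11), *Otub1*, a deubiquitinase (-0.54), and *Traf6* (-0.48) fell. With FK506 1 of 12 passed, against 19.0% of all genes: *Nedd4*, which fell (log2 fold change -0.63, edgeR adjusted p = 0.0352). The split depended on the scaling: without TMM factors 7 rose and 1 fell with the combination, and 2 rose and none fell with FK506, while over all genes that scaling gave 6380 rises and 3756 falls with the combination and 3006 and 1569 with FK506.

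The Egr partners and other immediate-early genes split as well: with the combination 7 of 14 rose and 3 fell against anti-CD3 alone (median log2 fold change 0.36), and with FK506 4 rose and 3 fell (median 0.14). Over all genes tested, 43.3% and 19.0% passed in these comparisons, in which 7 and 9 of 10 B-cell markers and 7 of 8 myeloid markers were higher. *Egr4*, the remaining member of the *Egr* family, rose from 0.112 ± 0.0466 FPKM with anti-CD3 alone to 1.46 ± 0.529 with FK506 and 1.49 ± 0.428 with the combination (log2 fold change 3.53, edgeR adjusted p = 0.000299, and 3.47, adjusted p = 5.92e-05), so it remained far below *Egr1* to *Egr3* in level. *Fosb*, a component of AP-1, rose by 3.39 and *Elk3*, a cofactor of serum response factor, by 1.14 on the log2 scale with the combination. *Atf3* (-2.48), *Ier3* (-2.33) and *Ier2* (-0.55) fell. From replicates 2 and 3 alone the combination gave the same counts, 7 rises and 3 falls.

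Of the partners of Nr4a receptors and the Tox factors, 4 of 5 were tested (*Rxrg* was not), and 3 rose with the combination and 3 with FK506 (all genes, 43.3% and 19.0%). *Tox*, a nuclear factor linked to T-cell exhaustion and to Nr4a activity, was at 4.1 ± 1.88 FPKM with anti-CD3 alone, 6.54 ± 1.46 with *L. acidophilus*, 8.58 ± 2.59 with FK506 and 23.5 ± 4.7 with the combination (log2 fold change 2.39 for the combination, edgeR adjusted p = 0.000127). *Tox2* rose from 0.642 ± 0.0753 to 5.61 ± 0.625 FPKM (log2 fold change 2.90, edgeR adjusted p = 0.000249). *Rxra*, a retinoid X receptor that pairs with Nr4a1 and Nr4a2, was highest with FK506 at 23.5 ± 1.54 FPKM, against 3.9 ± 1.42 with anti-CD3 alone, 4.08 ± 2.19 with *L. acidophilus* and 12.4 ± 3 with the combination. The summed B-cell markers were also highest with FK506 and next highest with the combination (9 of 10 higher with FK506 than with anti-CD3 alone, and 9 of 10 lower with the combination than with FK506). Of the myeloid markers tested, 7 of 8 were higher than with anti-CD3 alone in both comparisons, and their sum was highest with the combination. The part of either in the rise of *Rxra* was not tested.

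Anergy-associated genes other than the 10 did not move one way: 3 of 12 rose and 2 fell with the combination (median log2 fold change 0.20), and 2 rose and 3 fell with FK506 (median 0.13), where 43.3% and 19.0% of all genes passed. *Nt5e* (CD73, which forms adenosine; from 0.3 ± 0.179 to 33 ± 3.73 FPKM, log2 fold change 6.54), *Nrp1* (neuropilin 1, 2.87) and *Tigit* (an inhibitory receptor, 1.04) rose with the combination. *Crtam* (-1.48), an adhesion receptor, and *Btla* (-0.92), an inhibitory receptor, fell. The calcineurin and NFAT target genes also split, with 4 of 12 higher and 5 lower with the combination (median -0.42), and 2 higher and 6 lower with FK506 (median -0.76), against the same 43.3% and 19.0% of all genes. The B-cell markers (7 of 10 higher with the combination, 9 with FK506) and myeloid markers (7 of 8) moved with the comparisons of both lists, and their part was not tested. The cytokine genes *Il3* (-5.63), *Csf2* (-3.48) and *Il2* (-3.22) fell most with the combination, where *Xcl1* (1.79), *Nfatc1* (1.17) and *Cd69* (1.13) rose most. *Il2* was at 31.6 ± 15.7 FPKM with anti-CD3 alone, 10.6 ± 4.58 with FK506 and 3.87 ± 0.857 with the combination. *Il2*, *Il3* and *Csf2* also fell with FK506 (log2 fold changes -1.67, -3.39 and -3.14), and *Nfatc1* (0.79) and *Cd69* (0.68) were the 2 of the list that rose. Of the 10 genes *Nab2* and *Nr4a2* fell with FK506, and a link of these falls to the targets was not tested.

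**Figure D5:**
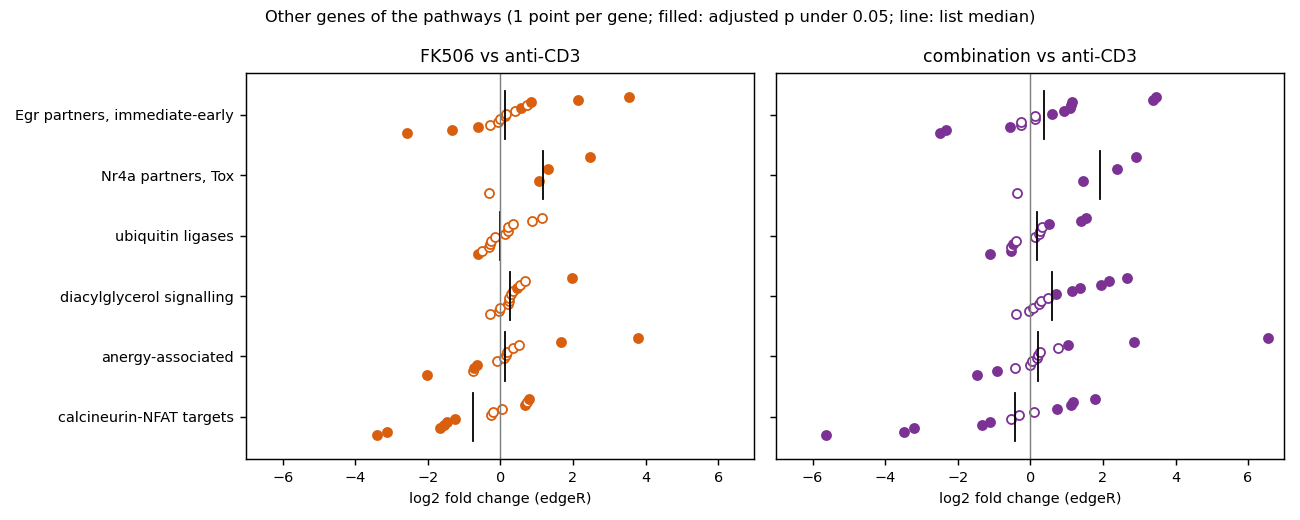
Log2 fold change (horizontal axis, edgeR) of the other genes of 6 pathway lists (rows), 1 point per gene, for FK506 (left) and the combination (right) against anti-CD3 alone, filled where the adjusted p was under 0.05, with a line at the median of each list. The diacylglycerol genes that passed with the combination all lie above 0, and the calcineurin and NFAT targets spread from -5.63 to 1.79.

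The genes whose pattern over the 12 libraries was most like that of 3 members were found among 8723 genes with a mean of at least 5 FPKM, by the root mean square difference of log2(FPKM + 1) centred on each gene's mean. For *Egr2* they were *Ube3a* (0.113), *Dusp6*, a phosphatase that acts on ERK (0.12), and *Rlim* (0.122). *Dgka* was most like *Smurf1* (0.11), *Ranbp10* (0.122) and *Foxj2* (0.122). These 3 were picked for that likeness, so their highest level with the combination came with the choice (means of 15.5, 23.8 and 12.9 FPKM against 5.36, 9.77 and 4.96 with anti-CD3 alone). The nearest genes to *Nr4a1* were less close: *Vwa5a* (0.252), *Lsp1* (0.253) and *Cirbp* (0.253).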

How the data were processed

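RNA-seq libraries (12) were assigned to 4 groups of 3 from the labels. Per the submitters' processing notes, reads were handled with bcl2fastq 2.20.0, Trimmomatic, HISAT2 2.1.0 and StringTie 2.1.3b on mm10 (GRCm38). The authors deposited a read count per gene (whole numbers) and FPKM values, named as normalized by the authors, and 12 TPM columns were not used. The labels name Balb/c mice, whereas the methods of the study name B6 mice for this experiment; this was not resolved. Gene IDs were matched to RefSeq (GRCm38.p6) for 99.8% of genes.

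The 10 genes and all gene lists were chosen with earlier results of these data known. Genes above 0 in at least 3 of 12 libraries were tested on the deposited counts with edgeR 4.0.16 (R 4.3.3; TMM factors, quasi-likelihood F-test, 1 mean per group, all 12 libraries), with Benjamini-Hochberg adjustment over all genes and calls at 0.05. Log2 fold changes are on this count scale and have 95% intervals. FPKM values are printed as deposited, and with 3 against 3 an exact permutation test of them cannot go below 0.1. The scripts were tested on simulated data. Named genes beside the 10 were the 3 largest rises and falls that passed per list with the combination against anti-CD3 alone, any list gene needed to say what its members did, *Stat6*, and the 3 nearest patterns of *Egr2*, *Nr4a1* and *Dgka*. Alternatives were low-count filters, RLE or no scaling, DESeq2 1.42.0, limma 3.58.1 on log2(FPKM + 1) or log2(FPKM + 0.1), only the groups compared, a replicate block, leaving out libraries, replicates 2 and 3 alone, and stricter calls. Deviations from the group means of same-numbered libraries correlated by over 0.1 in 10 of 18 pairs (-0.05 to 0.37). They did so in all 3 pairs only between *L. acidophilus* and anti-CD3 alone (0.13 to 0.36). The main fits took the numbers as pairs in no comparison, this one included, and the fit with the number as a block was an alternative. No libraries of a group agreed within the noise of sampling (chi-square over its degrees of freedom, 4.61 to 205). Counts limit *Rnf128* most.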

Additional observations from a re-analysis of the deposited data

Results flagged for a closer look

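The effect of *L. acidophilus* on *Nab2* differed with and without FK506 by 0.85 on the log2 scale (edgeR adjusted p = 0.0258). It was singled out because the test of the difference itself passed the threshold. The log2 fold change was -0.52 without FK506 and 0.33 with it. All 3 combination libraries (36.6 to 41.1 FPKM) lay above all 3 FK506 libraries (28.9 to 30.1 FPKM), where 41.1% of all genes tested did not overlap and 23.4% were higher without overlap. The *L. acidophilus* libraries (29.1 to 35 FPKM) overlapped those with anti-CD3 alone (34.9 to 47.1 FPKM). The call was kept in 6 of 12 fits without 1 library and lost in replicates 2 and 3 alone (edgeR adjusted p = 0.0952). In the combination against FK506, 9 of 10 B-cell markers were lower, and of 8 myeloid markers tested 5 were higher and 1 lower. No explanation was tested.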

How the results depend on the processing

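Of the 60 log2 fold changes (10 genes, 6 comparisons), none that was called changed its direction under any alternative. Over all alternatives and fits without 1 library, 1203 values kept their direction and side of the threshold, 52 gained a call, 22 lost one and 33 changed direction. DESeq2 called 1 member for *L. acidophilus* (1112 of all genes) and 3 for the combination against FK506 (5841 of all genes). It called 3 for the difference between the *L. acidophilus* effects with and without FK506 (2380 of all genes). For the combination against FK506, 1 member and 4508 of all genes were called. The count became 2 with stricter or no low-count filters (4959 and 4280 of all genes), RLE factors (4558) and limma on log2(FPKM + 1) and log2(FPKM + 0.1) (5420 and 5272). It became 3 without TMM factors (4535) and from replicates 2 and 3 alone (4117), 4 with only those libraries fitted (5234), and 0 at 2-fold (1754). Replicates 2 and 3 alone gave 5 members for FK506 (3493 of all genes), 5 for the combination against anti-CD3 alone (9670) and 2 for the difference (474). At 2-fold, 1 member was called for FK506 (2491 of all genes), 1 for the combination against *L. acidophilus* (3910) and 0 for the difference (559). The difference also had 0 at 0.01 (149 of all genes). The cause of these changes was not tested, apart from the smaller number of libraries or the stricter rule.

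The main fits took the replicate numbers as pairs in no comparison. With the number as a block, FK506 changed 4 members (adding *Nr4a1*, log2 fold change 0.68, edgeR adjusted p = 0.0346; 4886 of all genes), and the combination changed 4 against anti-CD3 alone (adding *Egr2* and *Nr4a2*; 10478 of all genes) and 4 against FK506 (adding *Egr2*, *Nr4a1* and *Nr4a2*; 5216 of all genes), and 3 were called for the difference (with 1578 of all genes). The block called 101 of all genes for *L. acidophilus*.

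Over all genes tested, *L. acidophilus* against anti-CD3 alone gave 54 calls, and 126 with edgeR's own low-count filter, 115 with none, 1112 with DESeq2, 86 and 94 with limma on log2(FPKM + 1) and log2(FPKM + 0.1), 0 with only those 6 libraries, 3 from replicates 2 and 3 alone and 1 at 0.01. FK506 gave 2762 with only its 6 libraries, 2491 at 2-fold and 2015 at 0.01. The combination gave 5797 at 2-fold against anti-CD3 alone, 1754 at 2-fold and 1984 at 0.01 against FK506, and 3910 and 4902 against *L. acidophilus*. The difference gave 2380 calls with DESeq2, 1675 with limma on log2(FPKM + 1), 474 from replicates 2 and 3 alone, 559 at 2-fold and 149 at 0.01.

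Leaving out 1 library, *L. acidophilus* against anti-CD3 alone called 0 to 1 member and 1 to 391 genes (without *L. acidophilus* replicate 1 and anti-CD3 replicate 3), FK506 2 to 4 members and 2495 to 4747 genes (lowest without FK506 replicate 2), the combination 2 to 4 members (4 without anti-CD3 replicate 1) and 8517 to 10198 genes against anti-CD3 alone, 1 to 4 (4 without anti-CD3 replicate 1) and 2343 to 5523 (lowest without FK506 replicate 3) against FK506, and 2 to 3 and 5946 to 8842 against *L. acidophilus*. The difference gave 0 to 2 members and 332 to 1464 genes (lowest without *L. acidophilus* replicate 2).

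Directions turned for uncalled values near 0. With *L. acidophilus*, *Nr4a1* came to 0.057 and 0.06 with limma and -0.417 to 0.156 without 1 library, *Nr4a3* to -0.217 to 0.474, *Egr1* to -0.005 to 0.517, *Egr3* to -0.002 to 0.313 and *Rnf128* to -0.32 to 0.121 (0.147 from replicates 2 and 3 alone). With FK506, *Egr2* ranged from -0.025 to 0.205 and *Cblb* from -0.268 to 0.366 (-0.069 from replicates 2 and 3 alone). With the combination against anti-CD3 alone, *Rnf128* was 0.011 without TMM factors and 0.012 and 0.034 with limma, *Nr4a3* ranged from -0.076 to 0.615 and *Cblb* from -0.092 to 0.542 (-0.042 from replicates 2 and 3 alone). Against FK506, *Egr1* ranged from -0.099 to 0.242 and *Cblb* from -0.023 to 0.34. Against *L. acidophilus*, *Rnf128* was 0.048 without TMM factors, 0.028 and 0.073 with limma and -0.309 to 0.132 without 1 library, and *Nr4a3* ranged from -0.087 to 0.297. For the difference, *Cblb* ranged from -0.591 to 0.042 and *Egr1* from -0.417 to 0.106. With 71 to 194 counts in a library, *Rnf128* was the member most limited by depth.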
